A study of Mus musculus with 25 samples.

Results

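The enzymes of the polyol and fructolysis pathways measured in pgWAT, the perigonadal white fat that lies along the epididymis in male mice, were Akr1b3, Sord, Khk and Glyctk. They were taken by gene name, as every probe on the array that carried 1 of these 4 names. The deposited table of values held 26394 distinct names, among them array labels that are not gene symbols. The array held 8 probes for them, 2 per gene, and 7 of the 8 had values in the table. The other, a second Glyctk probe, was well above background on 1 ChREBPβ WT array and on 2 arrays of each other group, with raw median intensities of 20 to 33 over all arrays, and was not analysed further.

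The study asked which transcripts depend on ChREBPβ, the short isoform of the glucose-responsive transcription factor ChREBP that Mlxipl encodes, and which depend on both isoforms. All 25 mice were male C57BL6/J, each on its own single-colour array, and had been fasted for 24 h and refed for 18 h with 20% glucose in the drinking water. ChREBPβ-deficient mice (ChREBPβ KO, 6 arrays) carried a CRISPR/Cas9 deletion of the exon specific to ChREBPβ and were set against wild types of that line (ChREBPβ WT, 7 arrays). Total ChREBP-KO mice (5 arrays) were Mlxipl-null, without ChREBPα and ChREBPβ, and were set against wild types of that line (total ChREBP WT, 7 arrays). Neither deletion was restricted to fat, and the ages of these mice are not stated in the labels.

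In the polyol pathway, aldose reductase (Akr1b3) reduces glucose to sorbitol and sorbitol dehydrogenase (Sord) oxidises sorbitol to fructose, so that a cell can make fructose from glucose. Ketohexokinase (Khk) phosphorylates fructose to fructose 1-phosphate, and triokinase (Tkfc) phosphorylates the glyceraldehyde made from it. Glycerate kinase (Glyctk) brings glycerate, made when that glyceraldehyde is oxidised instead, back into glycolysis. Khk, Sord and Glyctk are abundant in liver and kidney, where most fructose is cleared, and ChREBP is known to raise fructolytic genes in liver by binding E-box pairs near their promoters.

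Promoter sequence from RefSeq (GRCm38.p6) was held for 3 of the 4 genes, all but Akr1b3. The 250 bases before each start are shown for these 3 genes. Capitals mark 2 motifs, searched on both strands. They are CACGTG, the E-box core that occurs in pairs in ChREBP binding sites, and GTTAAT, part of the site of the liver and kidney factor HNF1, which was chosen after the sequences were read.

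Khk, chr5:30921309-30921558, plus strand: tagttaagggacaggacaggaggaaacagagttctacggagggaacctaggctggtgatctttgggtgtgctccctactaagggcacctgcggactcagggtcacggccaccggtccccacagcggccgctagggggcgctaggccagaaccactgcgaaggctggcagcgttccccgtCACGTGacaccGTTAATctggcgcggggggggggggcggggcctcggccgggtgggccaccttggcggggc

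Glyctk, chr9:106158139-106158388, minus strand: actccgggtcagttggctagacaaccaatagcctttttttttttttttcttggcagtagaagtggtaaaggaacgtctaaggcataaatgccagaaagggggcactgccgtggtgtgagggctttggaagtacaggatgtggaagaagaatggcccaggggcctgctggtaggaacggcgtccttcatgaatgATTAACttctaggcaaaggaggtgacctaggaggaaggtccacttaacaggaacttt

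Sord, chr2:122234589-122234838, plus strand: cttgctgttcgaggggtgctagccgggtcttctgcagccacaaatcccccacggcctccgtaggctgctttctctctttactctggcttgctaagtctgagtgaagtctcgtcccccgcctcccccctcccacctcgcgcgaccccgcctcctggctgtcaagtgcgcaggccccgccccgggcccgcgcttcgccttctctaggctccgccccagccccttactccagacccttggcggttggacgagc

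CACGTG lay in the Khk window, 71 to 66 bases before the start, and in neither of the other windows. GTTAAT lay 60 to 55 bases before the Khk start, and its reverse complement ATTAAC lay 57 to 52 bases before the Glyctk start. Of 32851 promoters of the same length, 6.02% held CACGTG and 6.43% held GTTAAT on either strand. These matches describe the letters of the windows and are not measured binding sites.

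Levels are the log2 quantile-normalised intensities that the authors deposited, and a level of 1 gene cannot be set against that of another because probes differ in brightness. Each gene is represented by its brighter probe. Per the array design on mm9 these were the Akr1b3 probe A_52_P10041 at chr6:34253930-34253982 (minus strand), the Sord probe A_55_P1953301 at chr2:122091013-122091072 (plus strand), the Khk probe A_52_P72434 at chr5:31233555-31233614 (plus strand) and the Glyctk probe A_55_P2487095 at chr9:106055260-106055319 (minus strand). All 7 tabled probes were well above background on all 25 arrays. No annotation of mm9 was used here, so the exon that a probe reads is not stated.

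The arrays had raw medians of 84 to 127 against local backgrounds of 15 to 22. Mlxipl, the targeted gene, had levels of 15.74 to 16.24 in total ChREBP WT and 14.07 to 14.29 in total ChREBP KO, a difference of -1.77 (SE 0.14, limma adjusted p 1.11e-08). In the ChREBPβ line it had 14.72 to 15.46 in WT and 14.02 to 14.64 in KO, a difference of -0.74 (SE 0.13) with an adjusted p of 0.116, though the groups did not overlap. All 10 adipocyte markers were well above background on every array, and Adipoq, the adiponectin gene, had levels of 17.17 to 17.91 over all groups. Liver transcripts were present as well and separated the lines. The liver score, the mean over 20 liver genes of the log2 deviation from each gene's mean, was 0.56 to 4.36 in ChREBPβ WT, -0.95 to 3.64 in ChREBPβ KO, -3.56 to 1.27 in total ChREBP WT and -3.84 to -3.05 in total ChREBP KO. The summed intensity of the 20 genes was 119000 to 1290000 in ChREBPβ WT, 44000 to 876000 in ChREBPβ KO, 9370 to 178000 in total ChREBP WT and 8500 to 11800 in total ChREBP KO. All 20 genes were well above background on every ChREBPβ array, and 1 was not well above background on any total ChREBP-KO array. Alb, the albumin gene, had levels of 14.90 to 17.64 in ChREBPβ WT and 10.48 to 10.81 in total ChREBP KO. Kidney transcripts stood out on ChREBPβ WT replicates 1, 3 and 7, with kidney scores of 3.52, 3.73 and 2.03 against -1.19 to 0.98 over the other ChREBPβ arrays. Total ChREBP WT replicate 2 held the highest liver score of its group and also epididymis transcripts (score 5.17, next highest on any array 0.67). In whole tissue, fewer cells of a type and less RNA per cell cannot be told apart.

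Akr1b3, the first step of the polyol pathway, had a level of 13.72 (lowest), 14.11 (median) and 14.16 (highest) in ChREBPβ WT and of 13.90, 14.04 and 14.22 in ChREBPβ KO. In total ChREBP WT it was 14.00, 14.18 and 14.35, and in total ChREBP KO its levels were 13.93, 13.93, 13.99, 14.02 and 14.04. The groups overlapped, though all 5 total ChREBP-KO arrays lay below every total ChREBP WT array but replicate 2, the lowest WT array at 14.00. The second Akr1b3 probe had another order, with 11.28 to 11.50 in total ChREBP KO. There WT replicate 2, at 11.57, lay above all KO arrays, and WT replicates 6 (11.48) and 8 (11.39) lay within their range. For none of the enzymes was the share of all probes with such an order computed.

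Sord, which makes fructose from sorbitol, had 12.71, 13.36 and 14.56 in ChREBPβ WT and 12.40, 12.65 and 13.95 in ChREBPβ KO. The total ChREBP line was lower and tighter, with 12.04, 12.25 and 12.41 in WT and 12.31, 12.39, 12.52, 12.58 and 12.63 in KO. The lowest ChREBPβ WT array exceeded the highest array of the total ChREBP line.

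Khk, which commits fructose to fructolysis, had 12.19, 13.27 and 14.89 in ChREBPβ WT and 11.32, 12.17 and 14.56 in ChREBPβ KO. In total ChREBP WT it was 11.24, 11.69 and 12.16, and in total ChREBP KO it was 11.27, 11.29, 11.61, 11.74 and 11.85. The 2 highest ChREBPβ KO arrays, replicates 4 and 8 at 14.12 and 14.56, stood apart from the other 4, which did not exceed 12.21.

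Glyctk, which returns glycerate to glycolysis, had 10.49, 11.79 and 13.03 in ChREBPβ WT and 9.78, 10.39 and 12.23 in ChREBPβ KO, where replicates 4 and 8 were again highest. In the total ChREBP line it was 9.44, 9.85 and 10.33 in WT and 10.15, 10.25, 10.26, 10.56 and 10.76 in KO. The lowest KO array lay above 6 of the 7 WT arrays of that line and below replicate 2.

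**Figure D1:**
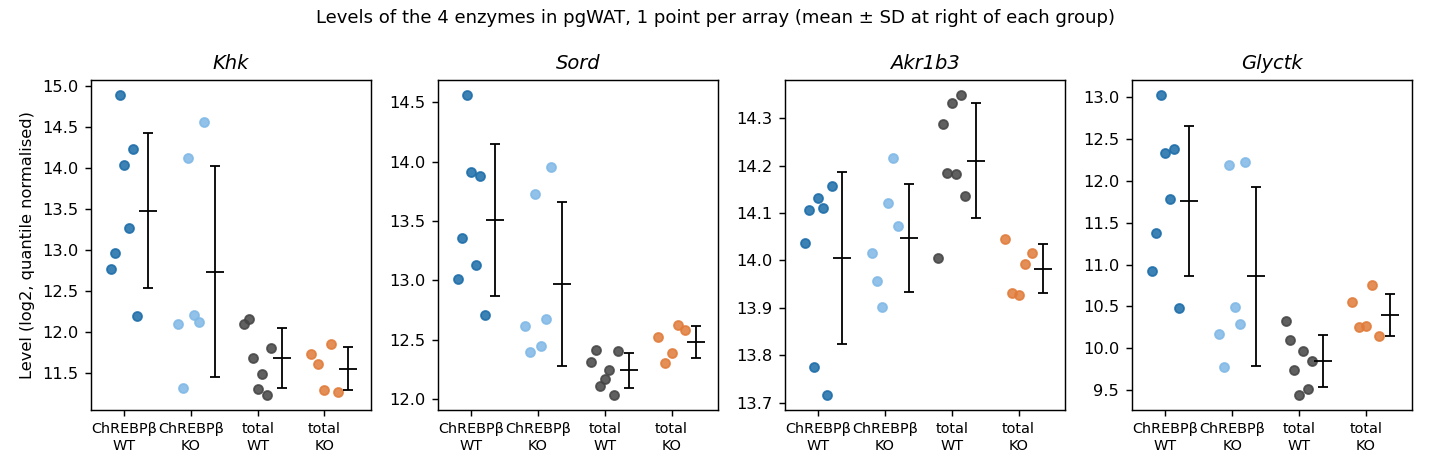
Level (log2, quantile normalised) of each enzyme on every array, by group, with 1 point per array and the group mean ± SD beside the points. The vertical axes differ between panels and do not start at 0. By group mean and SD, Khk, Sord and Glyctk are higher and more spread in the ChREBPβ line than in the total ChREBP line. The ChREBPβ KO arrays overlap those of the total ChREBP line. Akr1b3 stays between 13.72 and 14.35.

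The wild types of the 2 lines differed in 3 of the 4 enzymes, against 22.0% of all probes called (limma, adjusted p under 0.05). In log2 units, total ChREBP WT minus ChREBPβ WT was -1.80 for Khk (SE 0.42, adjusted p 0.00417). Sord was lower by -1.27 (SE 0.25, adjusted p 0.00116) and Glyctk by -1.91 (SE 0.38, adjusted p 0.0011). Akr1b3 went the other way, at 0.21 (SE 0.08), with an adjusted p of 0.0561. The median over the 4 genes was -1.53, beside 0.05 over all probes. Within wash batches 1 to 4 the difference was -2.97, -0.81, -2.14 and -0.78 for Khk, -2.10, -0.94, -1.30 and -0.56 for Sord, -3.09, -1.28, -1.91 and -1.05 for Glyctk, and 0.30, 0.18, 0.39 and -0.06 for Akr1b3. Each batch held at most 2 arrays of a group. Batch 2 held 1 array of each group, batch 3 held 1 array of each KO group and batch 4 held 1 total ChREBP-KO array. All 20 liver genes were also lower in total ChREBP WT, with a median of -4.57, and 6 of 11 kidney genes were lower, with a median of -1.53.

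The second probes gave the same picture for Sord and not for Khk. Sord A_51_P273596 (chr2:122090499-122090558) differed between the wild types by -1.08 (SE 0.26, adjusted p 0.00522). Khk A_55_P2168643 (chr5:31229105-31229164), which the design assigns to a predicted transcript, was dim, with levels of 6.34 to 7.48 over all arrays, and differed by -0.19 (SE 0.12, adjusted p 0.259). It passed the test in none of the comparisons. Akr1b3 A_55_P2174953 (chr6:34260573-34260632) was higher in total ChREBP WT by 0.35 (SE 0.12, adjusted p 0.0464), past the threshold that the brighter Akr1b3 probe missed.

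Within a group, where genotype was constant, Khk, Sord and Glyctk followed the liver score of the array in the ChREBPβ line. For Akr1b3 no relation passed the test. In ChREBPβ WT, Pearson's r was 0.85 for Khk, 0.81 for Sord and 0.90 for Glyctk (exact permutation test, two-sided, p adjusted over 12 relations 0.0343, 0.0472 and 0.0167), with Spearman's rho of 0.96, 0.89 and 0.96 (adjusted exact p 0.0167, 0.0333 and 0.0167). Without the 2 arrays farthest from the median score, r was 0.97, 0.85 and 0.98. In ChREBPβ KO, r was 0.96, 0.91 and 0.96 (adjusted exact p 0.0167, 0.0333 and 0.0167) and rho 0.94 for each (adjusted exact p 0.0333), and r was 0.96, 0.94 and 0.97 without the 2 farthest arrays. The KO scores of replicates 4 and 8, at 3.45 and 3.64, stood apart from the other 4, which were at most 1.39. In total ChREBP WT, r was 0.46, 0.13 and 0.77, with adjusted exact p of 0.367, 0.849 and 0.0694 and rho of 0.29, 0.14 and 0.71 (adjusted exact p 0.667, 0.803 and 0.151). For Akr1b3, r was -0.50, -0.02 and -0.58 in the 3 groups (adjusted exact p 0.306, 0.985 and 0.257), and rho was -0.46, 0.14 and -0.29 (adjusted exact p 0.454, 0.803 and 0.667). No correlation was computed over the 5 total ChREBP-KO arrays.

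On 2 ChREBPβ WT arrays the order of the Khk levels ran against that of the liver scores. ChREBPβ WT replicate 1 had a liver score of 0.56, the lowest of its group, and a Khk level of 12.77, above replicate 8 (liver score 1.61, Khk level 12.19). Its kidney score was 3.52 and that of replicate 8 was -1.14. The relation of enzyme levels to the kidney score within a group was not tested. Without replicates 1, 3 and 7, the 3 arrays of highest kidney score, the difference between the wild types was -1.33 for Khk (SE 0.48) with an adjusted p of 0.0916, an alternative chosen after the data were seen. Sord, at -0.99 (adjusted p 0.0293), and Glyctk, at -1.60 (adjusted p 0.0263), still passed. Replicates 3 and 7 also held the highest liver scores of ChREBPβ WT, 4.36 and 3.86, so that leaving them out removes liver and kidney transcripts together. With the liver and kidney scores as covariates, the wild types differed by 0.36 for Khk, -0.11 for Sord and 0.094 for Glyctk (adjusted p 0.67, 0.861 and 0.906).

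**Figure D2:**
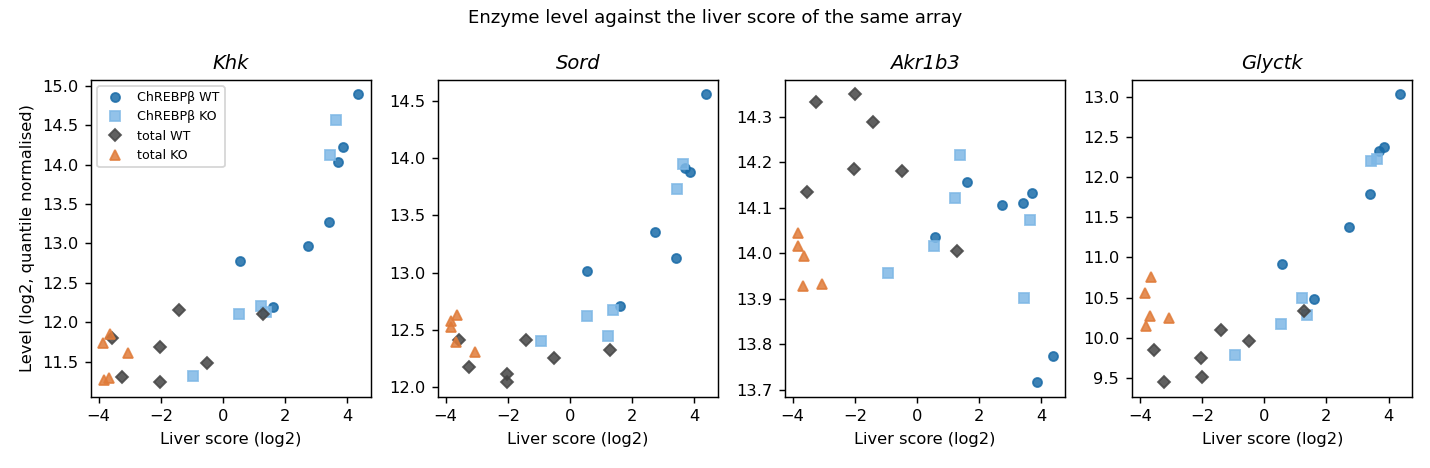
Level of each enzyme (log2, vertical axis, which differs between panels) against the liver score of the same array (log2 deviation, horizontal axis), 1 point per array, with shape and colour for the group. Khk, Sord and Glyctk rise with the score on the ChREBPβ arrays (r of 0.81 to 0.96 within a group), and the 5 total ChREBP-KO arrays sit at the left, from -3.84 to -3.05.

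The difference between the wild types was also computed with the liver signal taken into account in 3 ways, of which 2 left no enzyme past the threshold and 1 left 3. Of the total ChREBP WT arrays, only replicate 2 had a liver score within the range of ChREBPβ WT, so that line and liver score cannot be fully told apart. With the liver score as a covariate, the difference was 0.11 for Khk (SE 0.47, adjusted p 0.921), -0.26 for Sord (SE 0.32, adjusted p 0.678), -0.08 for Glyctk (SE 0.38, adjusted p 0.923) and 0.04 for Akr1b3 (SE 0.12, adjusted p 0.89), so that 0 of 4 were called, against 7.57% of all probes in that fit. The liver signal was also taken off on the linear scale, by each probe's slope on the liver signal. This lowered the intensity on ChREBPβ WT arrays by a median of 87.8% for Khk, where 5 of the 7 arrays reached the floor of the subtraction and the median is itself a floored array, 69.1% for Sord and 85.2% for Glyctk, against 8.61%, 3.78% and 8.11% on total ChREBP WT arrays and 0.304%, 0.105% and 0.159% on total ChREBP-KO arrays. Nothing was taken off Akr1b3, because slopes below 0 were held at 0.

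After this subtraction the mean level of Khk was 10.60 ± 0.76 (SD, n = 7) in ChREBPβ WT, 11.21 ± 0.86 (n = 6) in ChREBPβ KO, 11.28 ± 0.59 (n = 7) in total ChREBP WT and 11.54 ± 0.27 (n = 5) in total ChREBP KO. The Khk values of 7 arrays were at the floor, 5 of 7 in ChREBPβ WT, 1 of 6 in ChREBPβ KO, 1 of 7 in total ChREBP WT and 0 of 5 in total ChREBP KO, so that the floor largely sets the ChREBPβ WT mean of Khk and the Khk differences from it. Sord had 12.12 ± 0.63, 12.22 ± 0.21, 12.10 ± 0.25 and 12.48 ± 0.14 in the same order, and Glyctk 9.25 ± 0.88, 9.35 ± 0.44, 9.55 ± 0.33 and 10.39 ± 0.26, each with 1 ChREBPβ WT array at the floor. The wild types then differed by 0.69 for Khk (SE 0.36, adjusted p 0.188), -0.02 for Sord (SE 0.20, adjusted p 0.945) and 0.30 for Glyctk (SE 0.27, adjusted p 0.455), and 0 of 4 were called, against 22.6% of all probes.

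Leaving out the 6 of 13 ChREBPβ arrays whose liver score exceeded that line's median kept 3 WT and 4 KO arrays. On these, Khk had 12.19 to 12.96 in WT and 11.32 to 12.21 in KO, Sord 12.71 to 13.36 and 12.40 to 12.67, and Glyctk 10.49 to 11.37 and 9.78 to 10.50. The wild types still differed in 3 of 4 enzymes, by -0.98 for Khk, -0.76 for Sord and -1.05 for Glyctk (SE 0.25, 0.13 and 0.23), against 7.40% of all probes, but these 3 ChREBPβ WT arrays had liver scores of 0.56, 2.74 and 1.61, above 6 of the 7 total ChREBP WT arrays.

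**Figure D3:**
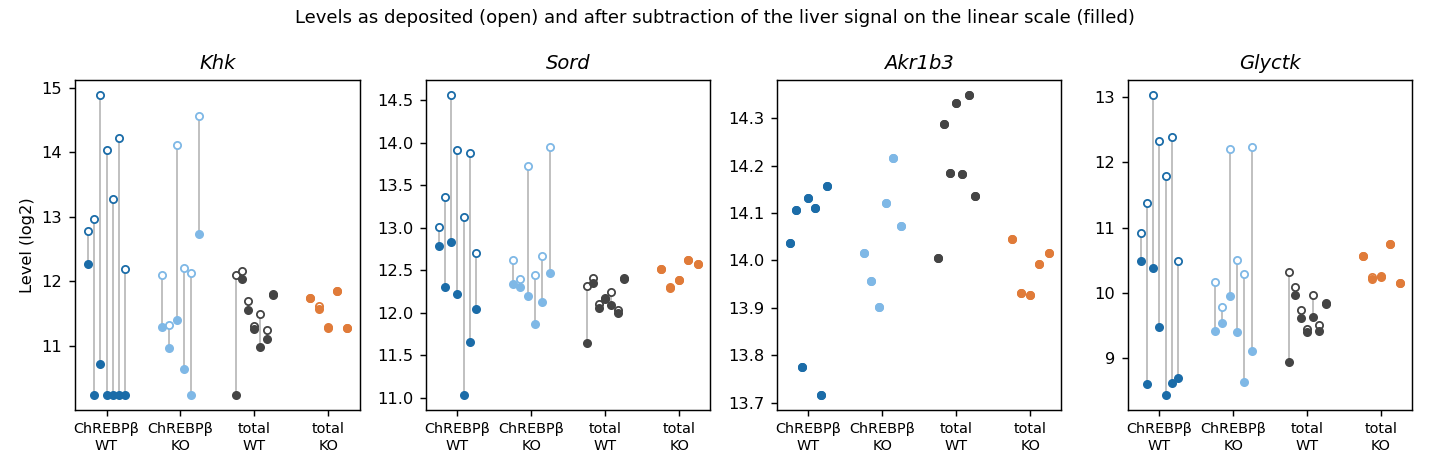
Level (log2) of each enzyme on every array as deposited (open points) and after the liver signal was subtracted on the linear scale (filled points), joined by a grey line; the vertical axes differ between panels. The lines are long on the ChREBPβ arrays for Khk, Sord and Glyctk, short on the total ChREBP arrays except WT replicate 2, and absent for Akr1b3, and the lowest row of Khk points is the floor at 10.24.

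Loss of both isoforms changed 0 of the 4 enzymes past the threshold, against 8.79% of all probes. The difference between total ChREBP KO and its WT was -0.22 for Akr1b3 (SE 0.08, limma adjusted p 0.111), 0.21 for Sord (SE 0.28, adjusted p 0.768), -0.16 for Khk (SE 0.46, adjusted p 0.916) and 0.52 for Glyctk (SE 0.42, adjusted p 0.561). The 95% interval ran from -0.40 to -0.05 for Akr1b3, from -0.36 to 0.79 for Sord, from -1.12 to 0.81 for Khk and from -0.34 to 1.39 for Glyctk. The median of the 4 was 0.03, beside 0.02 over all probes. On the second Akr1b3 probe the difference was -0.29 (SE 0.14, limma adjusted p 0.23). Slc2a5, the fructose transporter that brings fructose to Khk, fell by 6.74 on the log2 scale in the same comparison (adjusted p 1.13e-10), with 4 of the 5 KO arrays well above background and the other at the dim end of the array, so that the size is approximate.

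These errors come from the spread over all 4 groups. On the 12 arrays of the total ChREBP line alone, the SE was smaller, at 0.07 for Akr1b3, 0.09 for Sord, 0.15 for Khk and 0.16 for Glyctk. The differences were then -0.23, 0.25, -0.14 and 0.56, with unadjusted limma p of 0.00751, 0.0164, 0.385 and 0.00517 and adjusted p of 0.073, 0.12, 0.679 and 0.0578, and 0 of 4 were called, against 8.17% of all probes. WT replicate 2 carried epididymis and liver transcripts. When it was left out as well (chosen after the data were seen), Glyctk was higher in KO by 0.61 (SE 0.15, adjusted p 0.0404). Akr1b3 was lower, at -0.26 (SE 0.06, adjusted p 0.0415), and 2 of 4 were called, against 8.86% of all probes. Sord was at 0.25 (adjusted p 0.146) and Khk at -0.11 (adjusted p 0.768).

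Glyctk depended on how liver transcripts were handled. With the liver score as a covariate it was higher in total ChREBP KO by 1.31 (SE 0.28, adjusted p 0.00626), 1 of 4 enzymes called, against 6.26% of all probes, and after the linear subtraction by 0.79 (SE 0.29, adjusted p 0.111), 0 of 4 called, against 8.89%. The covariate fit used a single slope for all 4 groups, so that the slope came in part from the ChREBPβ arrays. Within total ChREBP WT, Glyctk levels of 9.44 to 10.33 went with liver scores of -3.56 to 1.27 (r 0.77, exact permutation test, adjusted p 0.0694). In ChREBPβ WT, levels of 10.49 to 13.03 went with scores of 0.56 to 4.36. A slope of its own was not fitted for the total ChREBP line, so the size of 1.31 rests on the shared slope. The liver scores of the total ChREBP-KO arrays did not overlap with those of the ChREBPβ arrays. Within wash batches 1 to 4 the Glyctk difference as deposited was 0.91, 0.17, 0.41 and 0.47. Within these batches it was -0.30, -0.36, -0.25 and -0.03 for Akr1b3, 0.33, -0.02, 0.44 and 0.16 for Sord, and 0.24, -0.86, -0.09 and -0.21 for Khk. Batches 2, 3 and 4 each held 1 total ChREBP-KO array. Of the 20 liver genes, 3 were lower in total ChREBP KO than in its WT and 0 higher, with a median of -1.87. Whether that part of the liver signal came with the genotype or with dissection cannot be told apart.

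**Figure D4:**
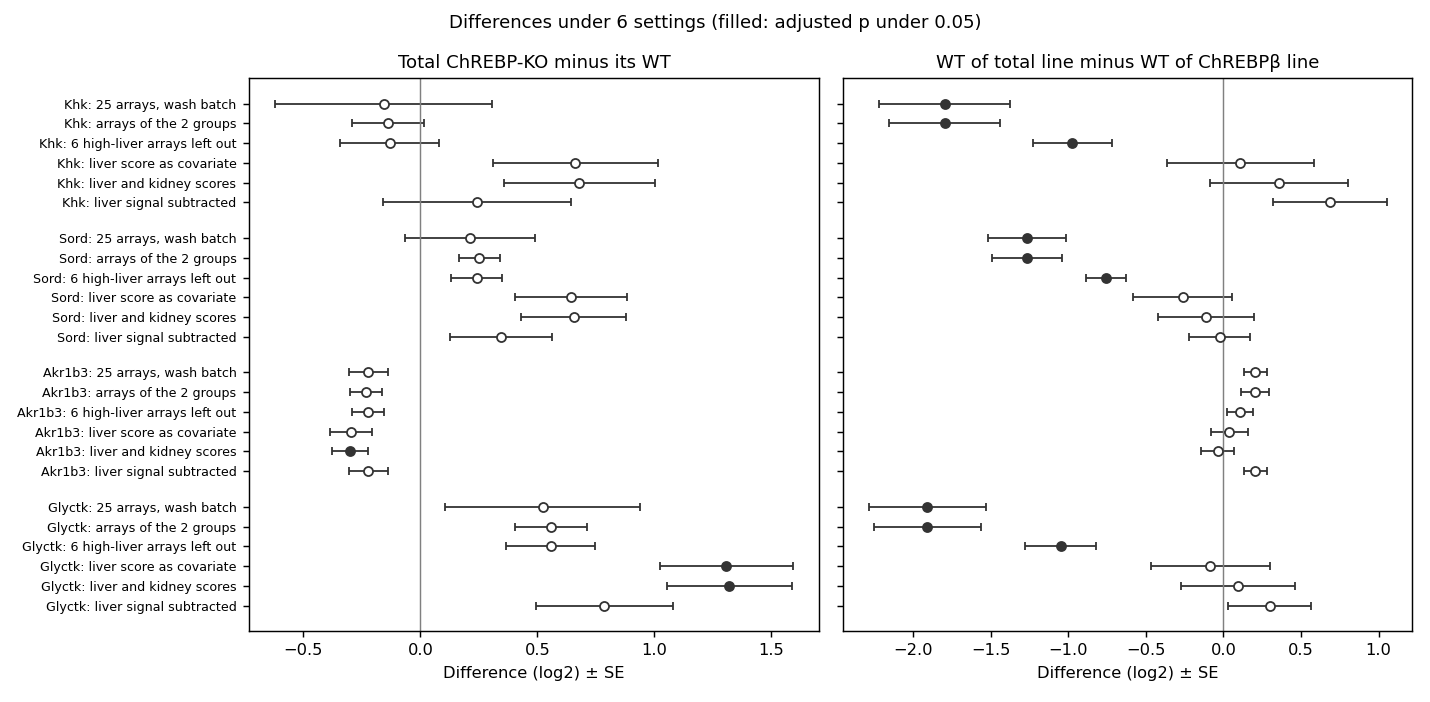
Difference in log2 level ± SE (horizontal axis) of each enzyme under 6 settings, for total ChREBP KO minus its WT (left) and for the wild types of the total ChREBP and ChREBPβ lines (right). Filled points passed an adjusted p of 0.05, and the row with 6 high-liver arrays left out concerns ChREBPβ arrays. On the right, Khk, Sord and Glyctk lie from -1.91 to -1.27 on the deposited values of all arrays. They lie from -0.26 to 0.69 with the liver score as a covariate or the liver signal subtracted. With the 6 high-liver arrays left out they lie between these ranges and are filled.

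Loss of ChREBPβ alone changed 0 of 4 enzymes, against 0.00% of all probes (0 of 40561 called, 3659 at an unadjusted limma p under 0.05). Over all probes, 486 (1.20%) were called without the 6 ChREBPβ arrays of high liver score, 80 without KO replicate 4 and 48 with array weights, and the enzymes called stayed at 0 of 4 in each. The difference between ChREBPβ KO and its WT was 0.04 for Akr1b3 (SE 0.08, adjusted p 0.934), -0.56 for Sord (SE 0.26, unadjusted p 0.0463, adjusted p 0.543), -0.78 for Khk (SE 0.44, adjusted p 0.631) and -0.93 for Glyctk (SE 0.39, unadjusted p 0.0292, adjusted p 0.496). The median of the 4 was -0.67, beside 0.02 over all probes and -1.38 over the 20 liver genes. Within wash batches 1 to 3 the difference was -1.06, -0.96 and -0.999 for Sord, -1.35, -1.65 and -1.29 for Khk and -1.50, -1.59 and -1.15 for Glyctk, and in batch 4, which held KO replicates 6 and 8, it was 0.39, 0.61 and 0.12. Akr1b3 was at 0.01, -0.15, 0.25 and 0.01. Batch 2 held 1 array of each group and batch 3 held 1 ChREBPβ KO array, so that these differences rest on few arrays. With the liver score as a covariate, the differences were -0.25 for Sord, -0.20 for Khk and -0.37 for Glyctk (SE 0.22, 0.32 and 0.26), and after the linear subtraction 0.09, 0.61 and 0.11 (SE 0.21, 0.38 and 0.28).

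The effects of the 2 deletions differed past the threshold in 0 of 4 enzymes, against 3.21% of all probes. The effect in the total ChREBP line minus that in the ChREBPβ line was 1.45 for Glyctk (SE 0.57, adjusted p 0.236), 0.77 for Sord (SE 0.38, adjusted p 0.414), 0.62 for Khk (SE 0.64, adjusted p 0.823) and -0.26 for Akr1b3 (SE 0.11, adjusted p 0.306). With the liver score as a covariate, Glyctk passed at 1.68 (SE 0.35, adjusted p 0.00649), 1 of 4, against 3.86% of all probes. The slope on the score was again shared by all groups. Without the 6 ChREBPβ arrays of high liver score, Glyctk passed at 1.28 (adjusted p 0.0316) and Sord at 0.72 (adjusted p 0.0322), 2 of 4, against 4.34% of all probes. After the linear subtraction Glyctk was at 0.68 with an adjusted p of 0.546, so that this difference depended on the way liver transcripts were handled.

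By group mean, Khk was highest in ChREBPβ WT, followed by ChREBPβ KO, then by total ChREBP WT and last by total ChREBP KO. Sord and Glyctk had the same order with the total ChREBP groups exchanged, and Akr1b3 was ordered total ChREBP WT, ChREBPβ KO, ChREBPβ WT and total ChREBP KO. None of the 12 neighbouring pairs in these orders differed past the threshold. The share of all probes called in the comparisons concerned ran from 0.00% to 23.6%. The order of each enzyme included ChREBPβ KO against its WT, where no probe passed. Of the pairs across the lines, total ChREBP KO minus ChREBPβ KO had 0 of 4 enzymes called, against 18.0% of all probes, and total ChREBP WT minus ChREBPβ KO had 0 of 4, against 23.6%. In total ChREBP KO minus ChREBPβ WT, 3 of 4 were lower, against 21.3%, with -1.95 for Khk (SE 0.46, adjusted p 0.00477), -1.05 for Sord (SE 0.28, adjusted p 0.00975) and -1.39 for Glyctk (SE 0.42, adjusted p 0.021).

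Over the 25 arrays, Khk, Sord and Glyctk rose and fell together, with Pearson's r of 0.96 (Khk and Sord), 0.96 (Khk and Glyctk) and 0.97 (Sord and Glyctk). After each group's mean was taken off, r was 0.95, 0.98 and 0.94. Akr1b3 had r of -0.46 with Khk, -0.54 with Sord and -0.58 with Glyctk. These describe arrays that share their liver content. Among 16583 genes with a symbol, those most like Khk included Tkfc (r 0.98), the triokinase that acts later in fructolysis, and Gchfr (0.97). Most like Sord were Glyctk (0.97), Olfm3 (0.97) and Hsd3b6 (0.97), and most like Glyctk were Rida (0.97), Sord (0.97) and Olfm3 (0.96). Those most like Akr1b3 were Apip (0.80), Elp5 (0.78) and Eef1e1 (0.78).

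The other genes of the pathway were taken from 4 lists, namely fructose entry, fructolysis, polyol and aldo-keto reductases, and hexose kinases, with 26 of 26 genes measured. In total ChREBP KO against its WT, 4 of 26 passed, 2 higher and 2 lower, against 8.79% of all probes, with a median of -0.17 beside 0.02 over all probes. Slc2a5 (GLUT5), the fructose transporter, had levels of 11.82 to 12.91 in WT and 4.42 to 7.23 in KO (4 of 5 KO arrays well above background). Hk2, hexokinase II of insulin-sensitive tissues, fell by 1.54 (SE 0.13, adjusted p 2.95e-08), from 14.04 to 14.54 in WT to 12.57 to 12.97 in KO. Aldh1a7, an aldehyde dehydrogenase, rose by 0.69 (SE 0.14, adjusted p 0.00247) and Tpi1, triosephosphate isomerase, by 0.39 (SE 0.08, adjusted p 0.00237). By list, 1 of 3 fructose entry genes, 2 of 11 fructolysis genes, 0 of 6 polyol and aldo-keto reductase genes and 1 of 6 hexose kinase genes passed. With only the arrays of the total ChREBP line and without WT replicate 2, 7 of 26 passed, 5 higher and 2 lower, against 8.86% of all probes.

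In ChREBPβ KO against its WT, 0 of 26 passed, against 0.00% of all probes, and 3 had an unadjusted limma p under 0.05. Slc2a5 had 9.64 to 10.82 in WT and 8.10 to 10.31 in KO, a difference of -1.33 (SE 0.36, adjusted p 0.307). The effects of the deletions differed in 2 of 26 genes, against 3.21% of all probes, Slc2a5 by -5.42 (SE 0.52, adjusted p 1.08e-06, approximate because 1 total ChREBP-KO array was not well above background) and Hk2 by -1.30 (SE 0.18, adjusted p 7.71e-05).

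Between the wild types, 14 of 26 passed, 5 higher and 9 lower in total ChREBP WT, against 22.0% of all probes, with a median of -0.09 beside 0.05 over all probes. Those that were lower included Fbp1, which makes fructose 6-phosphate in gluconeogenesis, by -4.50 (SE 0.95), Gckr by -4.59 (SE 0.72), Slc2a2 (GLUT2) by -2.42 (SE 0.45), Tkfc by -1.86 (SE 0.42), Xylb, xylulokinase, by -1.74 (SE 0.55), Aldh1b1 by -1.43 (SE 0.36) and Adh1 by -0.88 (SE 0.24). The 5 that were higher were Slc2a5 by 2.09 (SE 0.34), Hk2 by 0.96 (SE 0.12), Aldoa, the aldolase of glycolysis, by 0.54 (SE 0.09), Slc2a8 (GLUT8) by 0.32 (SE 0.10) and Akr1b10 by 0.30 (SE 0.09). With the liver score as a covariate, 2 of 26 passed, both higher, against 7.57% of all probes, and after the linear subtraction 6, all higher, against 22.6%, a share near that of all probes. Akr1b7, a relative of Akr1b3 known from the vas deferens, had levels of up to 18.07 on single arrays and as low as 4.41 on others in the same table, so its comparisons rested on few arrays.

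**Figure D5:**
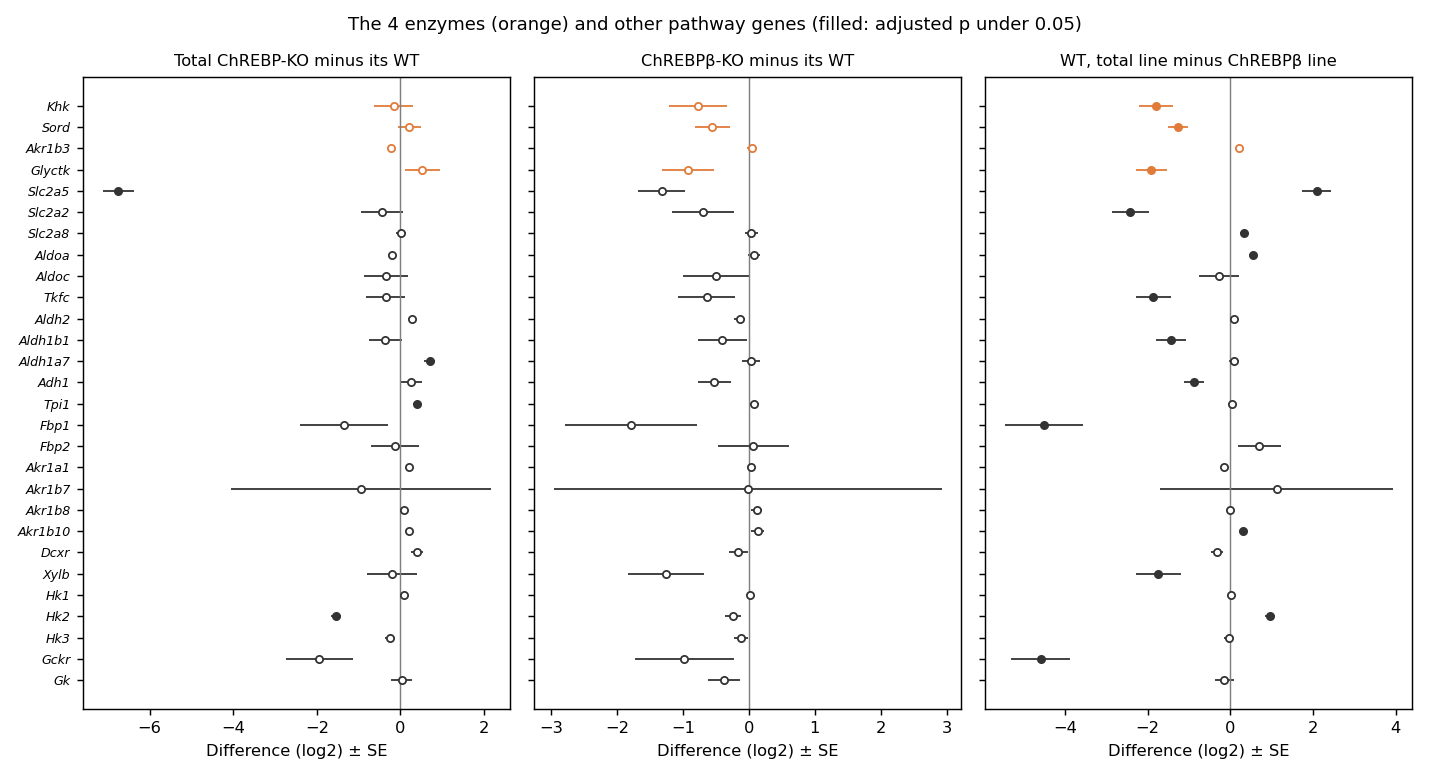
Difference in log2 level ± SE (horizontal axes, which differ in range) for the 4 enzymes (orange) and other genes of the pathway lists (black), in total ChREBP KO minus its WT, ChREBPβ KO minus its WT and the wild types of the 2 lines. Filled points passed an adjusted p of 0.05. Slc2a5 lies at -6.74 on the left, and 3 of the 4 enzymes are filled only on the right.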

How the data were processed

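The authors hybridised Cy3-labelled RNA of 25 mice to single-colour Agilent arrays and read them with Agilent Feature Extraction 10.10.1.1. The deposited series table holds log2 median intensities, quantile normalised by the authors, for 40561 probes. The scanner files give the intensity of each of 59305 gene spots as deposited by the authors, without normalisation, and served to check flags and to rebuild values. The members and gene lists were chosen with earlier results of these data known.

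All probes were fitted with limma 3.58.1 (R 4.3.3) with a mean for each of 4 groups and fixed wash batch terms (residual degrees of freedom 18, prior 2.51). The p-values were adjusted by Benjamini-Hochberg across the whole table, and a call needs less than 0.05. P-values measure the spread between mice, 1 array each, whose number limits the precision. The named genes were the 4 members, each by its brightest tabled probe, pathway genes called in the total ChREBP or wild-type comparison or needed for an order, and the 3 genes most like each member, except some that are not reported here. The liver signal of an array was its mean relative intensity over 20 liver genes, and its slope in a fit with group and wash batch, floored at 0, was subtracted down to at least 0.5 times a probe's lowest intensity. The slope's own error does not enter later tests. Both this slope and those of the score covariates were shared by all 4 groups. Of the distinct probes, 32994 were named by accession, 10224 by current and 520 by older symbol, and 12867 kept the array's name. The fit was tested on simulated data in which probes varied independently. These held no shared liver or kidney signal, so the test does not cover that setting.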

Additional observations from a re-analysis of the deposited data

Results flagged for a closer look

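In the second Akr1b3 probe (A_55_P2174953), ChREBPβ KO replicate 3 had a level of 10.77 while the other 5 arrays of the group had 11.3 to 11.52. It stood apart from its group by Dixon's criterion. Among total ChREBP-KO arrays, replicate 2 had a liver score of -3.052, above the -3.844 to -3.64 of the other 4, and was also set apart by that criterion. Of 36 group comparisons of this kind, 2 were set apart, and chance alone sets apart about 1 in 20.

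The effect of the deletion differed between the lines for 2 pathway genes, by the interaction term of the limma fit. Slc2a5 had a difference of effects (total ChREBP minus ChREBPβ) of -5.42, approximate because 1 of 5 total ChREBP-KO arrays was not well above background, and Hk2 of -1.30. Of the 4 enzymes, 0 passed this test on the deposited values.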

How the results depend on the processing

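The 3 calls between the wild types (Khk, Sord and Glyctk lower in total ChREBP WT) held in 38, 39 and 39 of 42 alternatives. With the liver score as a covariate they were at 0.11, -0.26 and -0.085, with the liver signal subtracted at 0.69, -0.024 and 0.30, and with liver and kidney scores at 0.36, -0.11 and 0.094, where Akr1b3 was at -0.038. Khk also missed at -1.33 without the 3 ChREBPβ WT arrays of highest kidney score, an alternative chosen after the data were seen. Akr1b3 passed between the wild types at 0.29 on the processed signal, 0.21 without the wash batch term, 0.21 with scan day, 0.24 with array weights and 0.28 as the mean over its probes. In total ChREBP KO, Akr1b3 passed at -0.27 with array weights, -0.30 with liver and kidney scores, -0.22 without the kidney-rich arrays and -0.26 on that line without WT replicate 2 (also chosen after the data were seen), and Glyctk at 1.31 with the liver score, 1.32 with both scores and 0.61 on that line without WT replicate 2. Khk turned to 0.66, 0.24 and 0.68 there with the liver score, the subtraction and both scores. The difference of effects passed for Glyctk at 1.68 (liver score), 1.52 (both scores) and 1.28 (without the 6 high-liver arrays) and for Sord at 0.72 (without these arrays), and that of Khk turned to -0.37 after subtraction. In ChREBPβ KO, subtraction turned Khk to 0.61, Sord to 0.089 and Glyctk to 0.11, both scores turned Khk to 0.031, and Akr1b3 turned to -0.0099 (liver score), -0.080 (both scores), -0.023 (without high-liver arrays) and -0.090 (without kidney-rich arrays). The cause of these changes was not tested.

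Leaving out each array in turn gave -0.31 to 0.065 for Khk (positive without WT replicate 3) and -0.26 to -0.19 for Akr1b3 in total ChREBP KO (passing without WT replicate 2, adjusted p 0.0422), -0.0056 to 0.072 for Akr1b3 in ChREBPβ KO (negative without WT replicate 7) and 0.15 to 0.25 for Akr1b3 between the wild types (passing without ChREBPβ WT replicate 2, 4 or 8 or total ChREBP WT replicate 2 or 8). Pathway calls are given with the share of all probes called in the same fit in brackets. In total ChREBP KO they were 8 (13.3%) with array weights and 7 (6.60%) with both scores, against 4 (8.79%). On that line without WT replicate 2 they were 7 (8.86%). Between the wild types they were 2 (7.57%) with the liver score, 2 (7.36%) with both scores and 6 (22.6%) after subtraction, against 14 (22.0%). They were 7 (7.40%) without high-liver arrays and 8 (9.97%) without kidney-rich arrays. In the difference of effects they were 4 (4.34%) without high-liver arrays, against 2 (3.21%). Within single wash batches, values that moved by more than the spread of the replicates included differences of effects of -0.82 (Khk), -0.24 (Sord), -0.50 and -0.035 (Akr1b3) and 0.35 (Glyctk). In total ChREBP KO these were 0.24 and -0.86 (Khk), -0.023 and 0.44 (Sord), -0.36 and -0.025 (Akr1b3) and 0.91 and 0.17 (Glyctk), in ChREBPβ KO 0.61 (Khk), 0.39 (Sord), -0.15 and 0.25 (Akr1b3), and between the wild types -2.97, -0.81 and -0.78 (Khk), -2.10 and -0.56 (Sord), 0.39 and -0.064 (Akr1b3) and -3.09 (Glyctk).

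Same-numbered arrays did not consistently deviate together (correlations of -0.43 to 0.39), and the numbers were not used as pairs. This check cannot exclude a pairing, because the arrays also differ in liver, kidney and epididymis transcripts. The replicate block gave 0.52 for Glyctk in total ChREBP KO and -1.78 for Khk between the wild types, changed no call of a member and moved the calls over all probes in total ChREBP KO from 3564 to 2484. The tabled probes of the members were well above background on all arrays, and the number of arrays limits the precision.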
